A study of Mus musculus with 5 samples.

Results

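The genes that move cholesterol into and out of macrophages, 10 in number, were followed in RNAseq libraries of aortic macrophages. They were chosen by name, as 10 of the 55487 genes in the count table. Of these, 4 act in or beside cholesterol efflux (*Abca1*, *Abcg1*, *Apoe*, *Scarb1*), 2 encode the liver X receptors (LXRs; *Nr1h2*, *Nr1h3*), and 4 encode receptors that take up lipoproteins (*Cd36*, *Msr1*, *Olr1*, *Lrp1*). The libraries came from male *Apoe* KO mice fed a Chow diet for 8 weeks and a Western diet, rich in fat and cholesterol, for the following 10 weeks. The question was whether macrophages without *Zeb1*, a transcription factor of cell plasticity, differ from their controls.

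Of the 5 libraries, 2 were labelled *Zeb1* WT/*Apoe* KO and 3 were labelled *Zeb1* ∆M/*Apoe* KO. *Zeb1* WT mice carried the floxed *Zeb1* allele (*Zeb1* fl/fl) without Cre. *Zeb1* ∆M mice carried it together with Cre from the LysM (*Lyz2*) locus, which is active in granulocytes as well as in macrophages. Both genotypes were backcrossed to C57BL6/J and lacked *Apoe*, so the libraries are called *Zeb1* WT and *Zeb1* ∆M hereafter. Cells were sorted from the aorta as viable CD45+ CD11b+ F4/80+ cells, and the methods describe mixing the macrophages of 3 mice. The paper states that its replicates are biologically independent, but the labels do not say which mice stand behind which library. The p-values therefore rest only on the spread between these libraries, which may be technical.

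Macrophages of the artery wall take up modified lipoproteins through scavenger receptors, which are not shut off by the cholesterol that enters. The cell disposes of free cholesterol through ATP-binding cassette transporters, ABCA1 to lipid-poor apolipoprotein A1 and ABCG1 to HDL. Oxysterols formed from cholesterol activate the LXRs, which pair with the retinoid X receptor and turn on the transporter genes, and macrophages that load more cholesterol than they export become foam cells.

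*Zeb1* itself was counted 0 and 0 times in the *Zeb1* WT libraries and 22, 0 and 0 times in the *Zeb1* ∆M libraries, so the counts did not check the genotype labels. Total counts ran from 20118545 to 50649912, and a floor of 3 counts was used as the limit that a count of 0 allows (0.0592 to 0.149 counts per 1e6 counts, CPM). This floor covers counting error only, since the reads came from amplified cDNA without molecular identifiers. Libraries 1 of both genotypes stood apart: 1714 genes in *Zeb1* WT library 1 and 870 in *Zeb1* ∆M library 1 had 100 or more counts, against 3173 to 4421 in the other 3 libraries, and mitochondrial transcripts took 3.35% and 4.61% of their counts, against 1.24% to 1.60%. They differed from each other in that *Zeb1* ∆M library 1 spread low counts over 20919 genes, against 7395 to 10689 in the other 4 libraries, and had a TMM factor of 0.515, against 1.03 to 1.42. The part of this spread in its small counts (*Zeb1* 22, *Apoe* 86, *Scarb1* 40) was not tested. Of 14 macrophage markers, 10 to 13 were over the floor in each library, but 5 had 100 or more counts in *Zeb1* ∆M library 1, against 10 to 12 in the others. The myeloid lysozyme *Lyz2* was counted 161607 to 869804 times, but *Csf1r*, the receptor of macrophage colony-stimulating factor, had 25 counts in *Zeb1* ∆M library 1 and the lysosomal glycoprotein gene *Cd68* had 0 in *Zeb1* WT library 1.

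None of the 10 genes passed the test between genotypes. The quasi-likelihood test of edgeR, adjusted by Benjamini-Hochberg, called 0 of the 7905 genes tested (0%), with 86 at an unadjusted p under 0.05, and called 0 of the 8 members that had enough counts, none of them at an unadjusted p under 0.05. The adjusted p was 1 for each of the 8. The 86 genes are fewer than a threshold of 0.05 would pass if no gene differed, and the common dispersion was 6.44. The edgeR test was thus conservative on these libraries, and 0 calls do not show that the genotypes are alike. DESeq2 with default options called 790 of 6519 genes (12.1%) and 0 of the 7 members to which it gave an adjusted p. Limma-voom with sample quality weights called 234 of 7905 genes and 0 of 8 members. Log2 fold changes (*Zeb1* ∆M minus *Zeb1* WT, on counts scaled by the trimmed mean of M values, TMM) were above 0 for 5 members and below 0 for 3, with a median of 0.15. Over all genes tested 60.9% were above 0, the median was 0.78, the median absolute log2 fold change was 2.22 and the median standard error was 4.60. For 7 of the 8 members the log2 fold change was smaller in size than its own standard error, the exception being *Nr1h2*. These standard errors were worked back from the fold change and the F statistic. With 23715 degrees of freedom for each of the 8, edgeR took the spread from all genes tested together. Its p-values, standard errors and intervals therefore do not measure each gene's own spread between the libraries. In bulk libraries such as these, fewer cells of a type and less RNA per cell cannot be told apart.

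**Figure D1:**
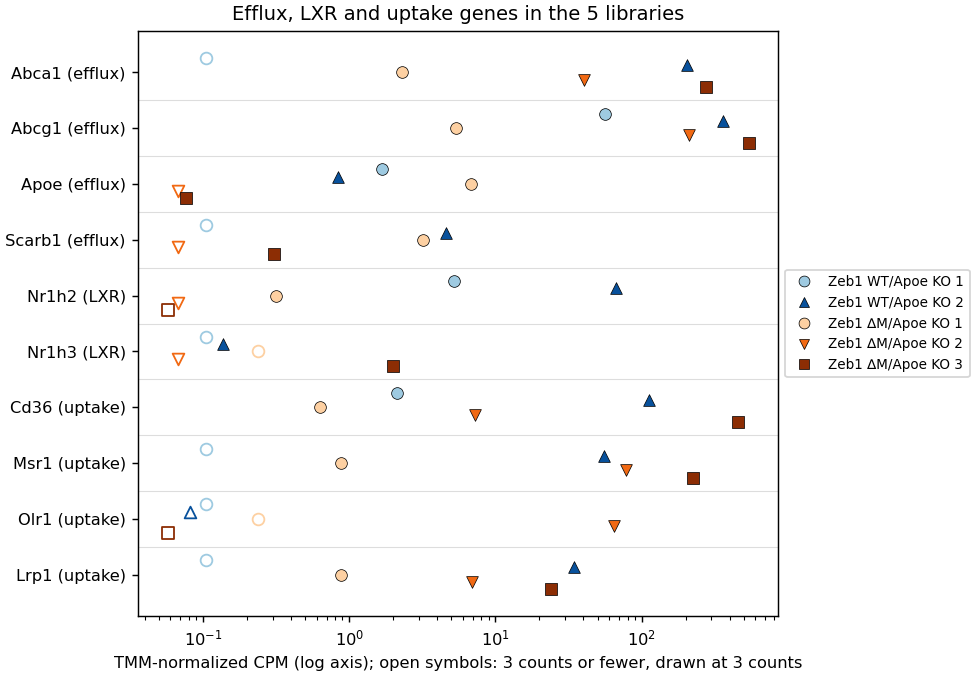
TMM-normalized CPM (log axis) of the 10 genes in the 2 *Zeb1* WT and 3 *Zeb1* ∆M libraries, 1 symbol per library, with open symbols for 3 counts or fewer, drawn at the level of 3 counts. The genotypes overlap in 9 of the 10 rows, and *Nr1h2* is the only row in which both *Zeb1* WT libraries lie above all 3 *Zeb1* ∆M libraries.

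The libraries differed more in how much of these genes they held than the genotypes did. Summed over the 10 genes, the TMM-normalized level was 65.1 and 837 CPM in the *Zeb1* WT libraries and 20.5, 408 and 1524 CPM in the *Zeb1* ∆M libraries. Libraries 1 of both genotypes were thus the lowest, and *Zeb1* ∆M library 3 alone held 61.0% of all counts of the 10 genes. At 100 or more counts, 2 and 7 of the 10 genes were found in the *Zeb1* WT libraries and 0, 6 and 6 in the *Zeb1* ∆M libraries. A set of 4 genes (*Abca1*, *Cd36*, *Msr1*, *Lrp1*) had under 100 counts in both libraries 1 and 100 or more in the other 3, a pattern seen in 8.40% of all genes tested. This pattern was chosen after the counts were seen, and it runs across the genotypes. The share of mitochondrial counts and the number of well-counted genes moved with it, and their part in the pattern was not tested. *Abcg1* and *Cd36* were the 2 members with more than 3 counts in all 5 libraries, as were 13.7% of all genes tested.

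*Abca1* encodes the transporter that loads cholesterol and phospholipid onto lipid-poor apolipoprotein A1. Its gene lies at chr4:53030787-53159895 on the minus strand of GRCm38 (ENSMUSG00000015243.4). The sequence just before its start is shown because it holds the element through which LXRs are known to act on this gene. The window is chr4:53159896-53160145 (RefSeq, GRCm38.p6), minus strand, written 5′ to 3′, and ends at the base before the start. Capitals mark both AGGTCA-like parts of the best match to a direct repeat of AGGTCA with 4 bases in between, read on the opposite strand.
Abca1: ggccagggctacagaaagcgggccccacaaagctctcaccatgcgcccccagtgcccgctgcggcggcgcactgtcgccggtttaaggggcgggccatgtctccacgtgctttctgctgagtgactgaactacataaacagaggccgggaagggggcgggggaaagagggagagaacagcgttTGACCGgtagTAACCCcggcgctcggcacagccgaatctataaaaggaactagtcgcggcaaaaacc
The match begins 67 bases before the start and has 3 mismatches in 12 bases. No other member's window held a match this close among the 7 members with a window (*Abcg1*, *Msr1* and *Scarb1* were not in the table), and 18.5% of all 32851 windows of this length did, so the letters alone are common.

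*Abca1* was counted 0 and 7476 times in the *Zeb1* WT libraries and 29, 1803 and 14509 times in the *Zeb1* ∆M libraries. *Zeb1* WT library 2 lay between *Zeb1* ∆M libraries 2 and 3, both libraries 1 were low, and the genotypes overlapped. The mean TMM-normalized level was 102 ± 144 CPM for *Zeb1* WT (SD, n = 2) and 107 ± 149 CPM for *Zeb1* ∆M (SD, n = 3). This came to a log2 fold change of 0.03 with a standard error of 4.54 and a 95% interval from -8.87 to 8.94. Within the *Zeb1* WT genotype the gap was from 204 CPM to none, and *Zeb1* ∆M library 3 was at least 2635-fold above the floor of *Zeb1* WT library 1, so neither a gain nor a loss of many-fold size could be told from no difference.

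*Abcg1*, the transporter gene for efflux to HDL (chr17:31057675-31117988, plus strand), was the best counted of the 10 genes. It was counted 1598 and 13186 times in the *Zeb1* WT libraries and 68, 9429 and 28417 times in the *Zeb1* ∆M libraries. The highest and the lowest library were both *Zeb1* ∆M and differed 100-fold in TMM-normalized level (543 and 5.41 CPM), with both *Zeb1* WT libraries between them. *Zeb1* WT averaged 208 ± 214 CPM (SD, n = 2) against 253 ± 271 CPM (SD, n = 3) for *Zeb1* ∆M, a log2 fold change of 0.26 (standard error 3.86, 95% interval -7.31 to 7.83). Per kb of exon, *Abcg1* stood above *Abca1* in each of the 4 libraries in which *Abca1* was counted, by 2.50-fold in *Zeb1* WT library 2 and by 3.33-fold, 7.43-fold and 2.78-fold in the *Zeb1* ∆M libraries.

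*Apoe*, the apolipoprotein that macrophages secrete as a cholesterol acceptor (chr7:19696109-19699188, minus strand), is disrupted in every mouse of the study. It was counted 48 and 31 times in the *Zeb1* WT libraries and 86, 0 and 4 times in the *Zeb1* ∆M libraries. The counts were low in all 5 libraries, the highest in *Zeb1* ∆M library 1, and the genotypes overlapped. edgeR put its log2 fold change at 0.85 (standard error 3.90), and the direction turned with some other tools, scalings and filters and with some libraries left out.

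*Scarb1* encodes SR-BI, an HDL receptor that exchanges cholesterol in both directions (chr5:125277087-125341094, minus strand). It was counted 0 and 168 times in the *Zeb1* WT libraries and 40, 0 and 16 times in the *Zeb1* ∆M libraries. In each genotype 1 library held none, and the highest, *Zeb1* WT library 2, reached 4.58 CPM. edgeR put its log2 fold change at -1.02 (standard error 3.77), and the direction turned under 3 of the other tools and scalings and without *Zeb1* WT library 2.

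*Nr1h2* encodes LXRβ, the LXR that most tissues express, and was the only member whose genotypes did not overlap. Its gene lies at chr7:44549616-44553951 on the minus strand (ENSMUSG00000060601.13). Its window, chr7:44553966-44554215, minus strand, is shown because it holds the box CACCTG, which ZEB1 is known to bind.
Nr1h2: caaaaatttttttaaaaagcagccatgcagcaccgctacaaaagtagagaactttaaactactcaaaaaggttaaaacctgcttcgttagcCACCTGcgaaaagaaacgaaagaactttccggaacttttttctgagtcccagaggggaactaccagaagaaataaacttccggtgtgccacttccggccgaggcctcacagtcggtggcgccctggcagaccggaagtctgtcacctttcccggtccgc
Capitals mark the box, which begins 159 bases before the start. The letters CACCTG on either strand were in 17.2% of all windows. Among the members they were also in 1 of the *Nr1h3* windows, 187 bases before that start, and in 1 of 3 *Apoe* windows, 212 bases before that start.

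*Nr1h2* was counted 149 and 2445 times in the *Zeb1* WT libraries and 4, 0 and 0 times in the *Zeb1* ∆M libraries. Both *Zeb1* WT libraries were thus above all 3 *Zeb1* ∆M libraries, and 2 of the latter held no read of this gene although they were 2 of the 3 deepest libraries. Of all genes tested, 4.53% were lower in all *Zeb1* ∆M libraries and 6.70% were higher, so many genes lacked overlap. *Zeb1* WT averaged 35.9 ± 43.4 CPM (SD, n = 2) against 0.106 ± 0.184 CPM (SD, n = 3) for *Zeb1* ∆M, a log2 fold change of -8.46 (standard error 5.77, 95% interval -19.78 to 2.85). By edgeR's quasi-likelihood test its adjusted p was 1. The alternatives gave log2 fold changes from -14.45 to -6.23, but with groups that do not overlap, leaving out a library cannot turn the sign. The lowest values, from fits whose only *Zeb1* ∆M libraries had 0 counts of this gene, rest on the prior count. Over these alternatives the adjusted p ran from 0.122 with limma-voom to 1, with 0.183 in DESeq2. An exact two-sided permutation test of the mean log2 CPM gave p = 0.1, the smallest that the 10 splits of 2 against 3 libraries allow.

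*Nr1h3* encodes LXRα, the form found mainly in liver, fat and macrophages and itself an LXR target (chr2:91184061-91202834, minus strand). It was counted 1 and 5 times in the *Zeb1* WT libraries and 0, 0 and 104 times in the *Zeb1* ∆M libraries. *Zeb1* ∆M library 3 held 94.5% of its counts, the other *Zeb1* ∆M libraries held none, and the genotypes overlapped. With 1 library over 5 counts it did not pass the filter on low counts, and no fold change is given. It shares 34 exon bases (1.35% of its exons) with the same-strand transcript *Gm13783*, the only such overlap among the 10 genes. Both LXR genes together reached TMM-normalized levels of 5.26 and 66.7 CPM in the *Zeb1* WT libraries and 0.318, 0 and 1.99 CPM in the *Zeb1* ∆M libraries. In *Zeb1* ∆M library 2, *Abca1* and *Abcg1* were counted 1803 and 9429 times while neither LXR gene was counted.

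**Figure D2:**
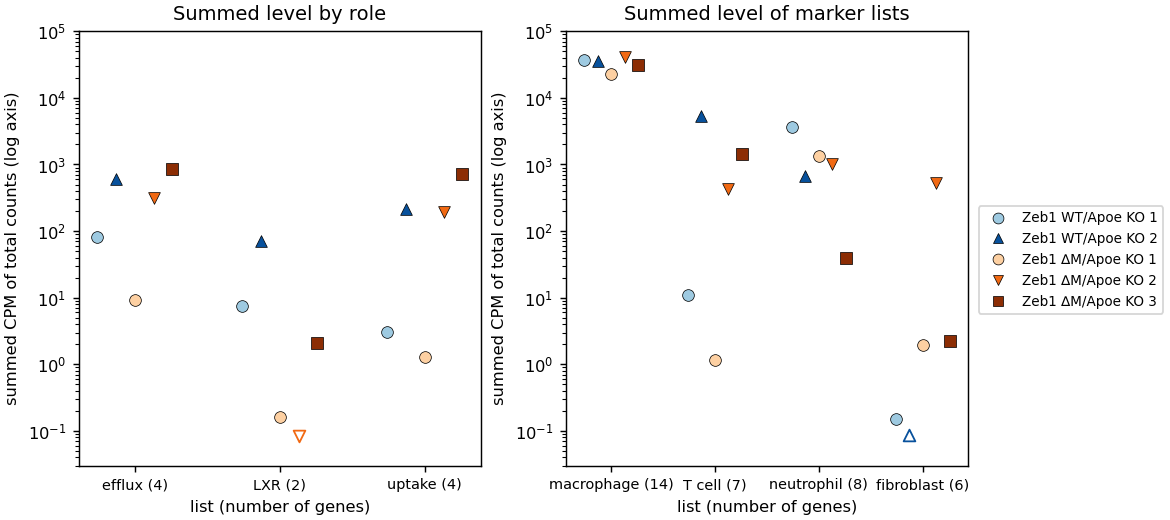
Summed CPM of total counts (log axis) in each library for the efflux, LXR and uptake genes (left) and for 4 of the marker lists (right), with open symbols for sums of 0, drawn at the level of 3 counts. Efflux and uptake sums are highest in *Zeb1* ∆M library 3 and lowest in *Zeb1* ∆M library 1, LXR sums are highest in *Zeb1* WT library 2, and T cell markers are highest in *Zeb1* WT library 2 and *Zeb1* ∆M library 3.

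*Cd36* encodes a scavenger receptor for oxidized LDL and long-chain fatty acids (chr5:17781690-17888801, minus strand). It was counted 61 and 4099 times in the *Zeb1* WT libraries and 8, 324 and 23754 times in the *Zeb1* ∆M libraries. *Zeb1* ∆M library 3 held 84.1% of all its counts and was 712-fold above *Zeb1* ∆M library 1, and both *Zeb1* WT libraries lay between them. *Zeb1* WT averaged 56.9 ± 77.4 CPM (SD, n = 2) against 154 ± 260 CPM (SD, n = 3) for *Zeb1* ∆M. The fitted log2 fold change was 1.40 (standard error 4.68, 95% interval -7.78 to 10.59), but -3.86 without *Zeb1* ∆M library 3.

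*Msr1* encodes the class A scavenger receptor SR-A, which binds acetylated and oxidized LDL (chr8:39581685-39642673, minus strand). It was counted 0 and 2026 times in the *Zeb1* WT libraries and 11, 3470 and 11735 times in the *Zeb1* ∆M libraries. *Zeb1* ∆M libraries 2 and 3 (77.8 and 224 CPM) were above *Zeb1* WT library 2 (55.2 CPM), *Zeb1* ∆M library 1 was below it, and so the genotypes overlapped. *Zeb1* WT averaged 27.6 ± 39.0 CPM (SD, n = 2) against 101 ± 113 CPM (SD, n = 3) for *Zeb1* ∆M, with a log2 fold change of 1.84 (standard error 5.14, 95% interval -8.24 to 11.92). It stayed above 0 in every alternative that gave a value, but was 0.48 without *Zeb1* ∆M library 3 and 0.96 without *Zeb1* WT library 1. Without *Zeb1* WT library 2, when only the library without counts stood for the controls, the fitted value was 14.85, which rests on the prior count.

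*Olr1* encodes LOX-1, an oxidized LDL receptor known best in endothelium and induced in macrophages by inflammatory signals (chr6:129485244-129507165, minus strand). It was counted 0 and 2 times in the *Zeb1* WT libraries and 1, 2871 and 0 times in the *Zeb1* ∆M libraries. A single library, *Zeb1* ∆M library 2, thus carried the gene at 64.4 CPM, while the other 4 were at or under the floor. With 1 such library it did not pass the filter, and no fold change is given. That library also held the highest sum of the 6 fibroblast markers (531 CPM, against at most 2.23 CPM in the others), nearly all of it from 19005 counts of the proteoglycan gene *Dcn*. The other 5 markers had 5 counts of the collagen gene *Col1a2* and 0 of the rest there, in cells sorted as CD45+. The endothelial markers summed to 0.168 CPM in the same library. The part of other cells in the *Olr1* count was not tested.

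*Lrp1* encodes a large endocytic receptor for remnant lipoproteins and aggregated LDL (chr10:127538161-127621148, minus strand). It was counted 0 and 1275 times in the *Zeb1* WT libraries and 11, 308 and 1265 times in the *Zeb1* ∆M libraries. After TMM scaling, *Zeb1* WT library 2 was the highest of all (34.7 CPM), *Zeb1* ∆M library 3 came next (24.2 CPM), and the genotypes overlapped. *Zeb1* WT averaged 17.4 ± 24.6 CPM (SD, n = 2) against 10.6 ± 12.1 CPM (SD, n = 3) for *Zeb1* ∆M, a log2 fold change of -0.74 (standard error 4.49, 95% interval -9.53 to 8.05). The direction turned with limma-voom, with another scaling, with replicate number as a block and without *Zeb1* WT library 2.

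Set against each other per kb of exon, the genes came in a different order in each well-counted library. In *Zeb1* WT library 2, *Abcg1* led with 49.2 CPM per kb, followed by *Cd36* (31.1), *Nr1h2* (19.9), *Abca1* (19.6), *Msr1* (8.70) and *Lrp1* (1.96). In *Zeb1* ∆M library 2 the order was *Abcg1* (29.0), *Olr1* (18.0), *Msr1* (12.3), *Abca1* (3.90) and *Cd36* (2.02). In *Zeb1* ∆M library 3 it was *Cd36* (126), *Abcg1* (74.4), *Msr1* (35.3), *Abca1* (26.7) and *Lrp1* (1.36). *Cd36* thus stood above *Msr1* in *Zeb1* WT library 2 and *Zeb1* ∆M library 3 and below it in *Zeb1* ∆M library 2, and *Lrp1* had the lowest level per kb of the 5 genes that reached 100 counts in all 3 libraries.

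**Figure D3:**
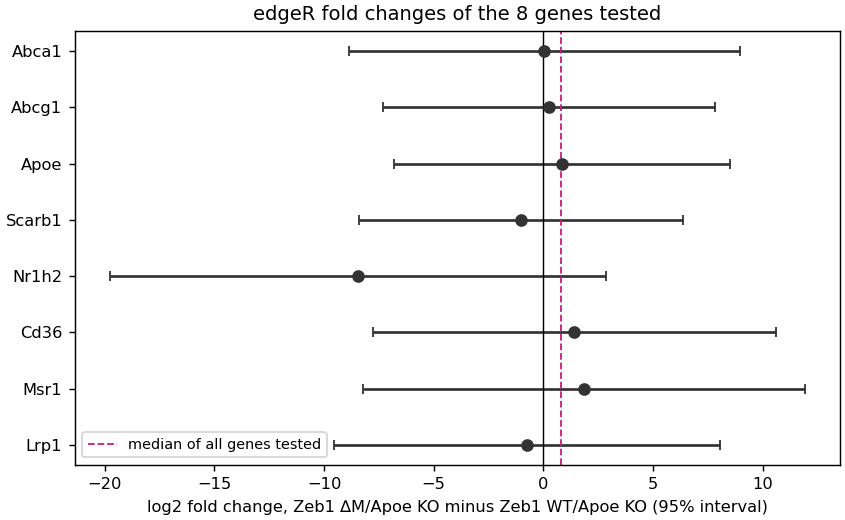
Log2 fold change (*Zeb1* ∆M minus *Zeb1* WT) of the 8 genes tested by edgeR's quasi-likelihood test, with 95% intervals, and the median of all genes tested (0.78) as a dashed line. All 8 intervals include 0, and the point farthest from 0 is *Nr1h2* at -8.46.

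The direction of a member's difference depended on how its libraries were averaged. edgeR compares mean levels, which the highest libraries lead, and gave log2 fold changes above 0 for *Abcg1*, *Apoe* and *Cd36* and below 0 for *Lrp1*. The difference of mean log2 CPM, which weights libraries equally, went the other way for these 4 genes: -0.73 for *Abcg1*, -1.74 for *Apoe*, -0.25 for *Cd36* and 1.94 for *Lrp1*. By the exact two-sided permutation test of this difference, the 9 genes other than *Nr1h2* had p from 0.5 to 1. No direction is therefore read for any of these 4 genes. With both libraries 1 left out, which compares *Zeb1* WT library 2 alone with *Zeb1* ∆M libraries 2 and 3, edgeR called 2 genes in all and 0 members. The log2 fold change was then -0.23 for *Abca1*, 0.19 for *Abcg1*, -4.23 for *Apoe* and -4.75 for *Scarb1* among the efflux genes. It was -14.45 for *Nr1h2*, 1.17 for *Cd36*, 1.58 for *Msr1* and -1.04 for *Lrp1*, so that the signs for *Abca1* and *Apoe* turned. Since *Nr1h2* had 0 counts in both *Zeb1* ∆M libraries of this fit, its value rests on the prior count.

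**Figure D4:**
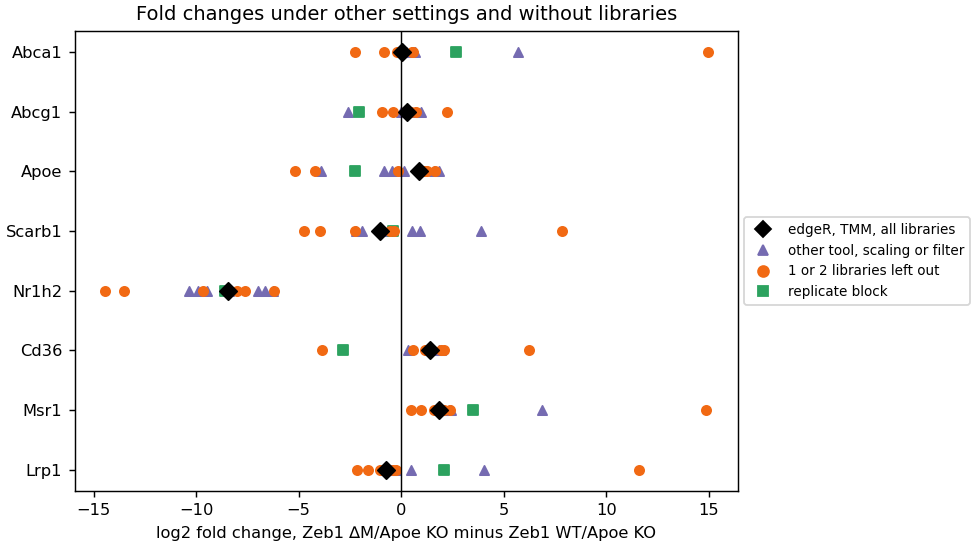
Log2 fold changes (*Zeb1* ∆M minus *Zeb1* WT) of the 8 genes tested, for the edgeR fit with TMM scaling on all libraries (diamonds), other tools, scalings and filters (triangles), 1 or 2 libraries left out (circles) and the fit with replicate number as a block (squares). *Nr1h2* lies below 0 and *Msr1* above 0 under every setting that gave a value, while the other 6 genes lie on both sides of 0.

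Efflux and uptake genes, summed by role, ordered the upper libraries alike. Efflux genes summed to 57.7 and 568 CPM (TMM-normalized) in the *Zeb1* WT libraries and to 17.8, 252 and 820 CPM in the *Zeb1* ∆M libraries. Uptake genes summed to 2.14 and 202 CPM in the *Zeb1* WT libraries and to 2.47, 156 and 702 CPM in the *Zeb1* ∆M libraries. The order of the upper 3 libraries was the same for both groups, and both genotypes overlapped in each.

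Genes of other cell types also differed between these libraries. The 7 T cell markers summed to 10.8 and 5300 CPM of total counts in the *Zeb1* WT libraries and to 1.15, 432 and 1419 CPM in the *Zeb1* ∆M libraries, so they were highest in *Zeb1* WT library 2 and *Zeb1* ∆M library 3, as the efflux and uptake sums were. The 8 neutrophil markers ran from 39.5 CPM in *Zeb1* ∆M library 3 to 3591 CPM in *Zeb1* WT library 1, all from *S100a8*, *S100a9* and *Retnlg*, of which the first pair are also monocyte genes, while the other 5 markers were at or near 0 in every library. The 14 macrophage markers summed to 23060 CPM in *Zeb1* ∆M library 1 and to 31118 to 41164 CPM in the others. Without *Lyz2* and the complement gene *C1qb*, which lead this sum, the other 12 came to 78.8 CPM in *Zeb1* ∆M library 1, against 5100 to 12241 CPM in the others. Of the other lists, 5 B cell markers reached 3.0 to 1442 CPM, 6 endothelial markers 0.168 to 73.0 CPM and 6 adipocyte markers 0.112 to 1251 CPM, nearly all of the last from *Fabp4*, which macrophages also express. Smooth muscle and hepatocyte markers were at or near 0 (at most 0.451 and 0.246 CPM). The part of these cells in the levels of the 10 genes was not tested.

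A further 66 genes of uptake, efflux, LXR control and LXR targets were listed as the pathway around the members, and 36 of them were tested. edgeR called 0 of the 36, with 0 at an unadjusted p under 0.05. Log2 fold changes were above 0 for 19 and below 0 for 17, with a median of 0.34, also with the 3 genes that had no count in either *Zeb1* WT library set to their lower bound. By list, the values were above 0 for 7 of 13 uptake genes, 7 of 10 efflux genes, 4 of 9 LXR genes and 4 of 7 LXR targets, beside 60.9% of all genes tested. Of the 66 genes, 12 had at most 3 counts in every library.

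The genotypes did not overlap for 5 of the 36 pathway genes tested, and all 5 were higher in the *Zeb1* ∆M libraries, against 6.70% higher and 4.53% lower of all genes tested. *Stab1*, a scavenger receptor gene of macrophages and sinusoidal endothelium, was counted 105 and 2938 times in the *Zeb1* WT libraries and 60772, 17741 and 9080 times in the *Zeb1* ∆M libraries. This gave a log2 fold change of 5.39 (standard error 3.52), with the highest count in *Zeb1* ∆M library 1. That library had the fewest genes with 100 or more counts, but *C1qb* and *Fabp4* were also highest in it. *Pltp*, the phospholipid transfer protein gene and an LXR target, was counted 15 and 1244 times in the *Zeb1* WT libraries and 3069, 18287 and 4808 times in the *Zeb1* ∆M libraries (log2 fold change 3.82, standard error 4.99).

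The other 3 had 0 or 1 counts in each *Zeb1* WT library. *Clec7a*, which encodes the β-glucan receptor dectin-1, was counted 0 and 0 times in the *Zeb1* WT libraries and 7, 5363 and 15746 times in the *Zeb1* ∆M libraries. It was called by DESeq2 (adjusted p = 0.00222) and by limma-voom (adjusted p = 0.000103) but not by edgeR's quasi-likelihood test (adjusted p = 1). *Abca7*, a phospholipid transporter gene related to *Abca1*, was counted 1 and 0 times against 26, 11 and 7670 times, and 1 library held nearly all of its counts. The scavenger receptor gene *Colec12* was counted 1 and 0 times against 45, 2 and 121 times, so its separation rests on libraries with 1 and 2 counts, under the floor, and their order cannot be read.

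DESeq2 called 4 of the 32 pathway genes to which it gave an adjusted p (12.5%, against 12.1% of all genes), of which *Clec7a* was also called by limma-voom. The others were *Abca7* (adjusted p = 0.0279), *Cyp27a1*, which encodes the enzyme that makes 27-hydroxycholesterol, and *Hdac3*, a histone deacetylase gene of nuclear receptor corepressor complexes. *Cyp27a1* was counted 6169 times and *Hdac3* 745 times in *Zeb1* WT library 2, and neither was counted in any other library, the other *Zeb1* WT library included. Both were named after their values were seen, and both failed edgeR's filter on low counts.

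The pathway genes with the highest mean level per kb of exon were *Cd68* (465 CPM per kb), *Apoc2* (452), which encodes the activator of lipoprotein lipase, and *Smpdl3a* (228), an LXR target gene of lipid metabolism. *Cd68* was counted 0 and 44664 times in the *Zeb1* WT libraries and 10, 36172 and 46735 times in the *Zeb1* ∆M libraries, which is the pattern of the 4 members low in both libraries 1. *Apoc2* was counted 7399 and 2345 times against 8825, 10287 and 30351 times, with counts in every library. *Smpdl3a* was counted 17778 and 14067 times against 0, 20783 and 46093 times, so that 1 library lacked it. The paper's qRT-PCR of *Prkaa1* and *Ppargc1a* was done in peritoneal macrophages with or without oxidized LDL, not in sorted aortic macrophages. Among the members, *Abca1*, *Abcg1*, *Scarb1* and *Nr1h3* were measured there as well. The paper also gives *Cd36* mRNA in macrophages with or without oxidized LDL. In the aortic libraries, the pathway genes also measured by qRT-PCR were at or near the floor. *Prkaa1*, the AMPK α1 subunit gene, was counted 0 and 0 times against 3, 0 and 18 times, and the coactivator gene *Ppargc1a* 0 and 0 times against 3, 0 and 1 times.

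Genes with the pattern closest to 1 member of each role were sought among the other members and the pathway genes (75 candidates, root mean square distance of centred log2 CPM over 5 libraries). For *Abca1* they were *Msr1* (0.999) and *Lrp1* (1.21), an efflux gene beside 2 uptake genes. For *Cd36* they were *Ncoa2* (1.21), a nuclear receptor coactivator gene, and *Abcg1* (1.76). For *Nr1h3* they were *Pparg* (0.70), the gene of a lipid-sensing nuclear receptor, and *Prkaa1* (1.65), all 3 of them low and highest in *Zeb1* ∆M library 3. These distances rest on the same 5 libraries, which share their differences in depth.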

How the data were processed

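RNAseq counts of the 2 *Zeb1* WT/*Apoe* KO libraries and the 3 *Zeb1* ∆M/*Apoe* KO libraries were used. cDNA was made with the SMART-Seq v4 kit, which does not mark strand. Per the labels and the submitters' processing notes, the authors aligned paired-end reads to GRCm38 with STAR 2.5.3a and quantified genes with RSEM 1.3.0. The deposited values are RSEM's estimated counts per gene as whole numbers, neither normalized nor filtered. All 5 columns matched a library, leaving 0 unmapped.

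The test was edgeR 4.0.16 (quasi-likelihood, TMM, filterByExpr with a minimum count of 10, Benjamini-Hochberg threshold 0.05, no covariate) in R 4.3.3, on all 5 libraries. DESeq2 1.42.0, the study's tool, and limma 3.58.1 (voom) were alternatives, beside other scalings and filters, a replicate block and libraries left out. Leaving out both libraries 1 together was added after seeing the data. The scripts were tested on simulated data. Log2 CPM used a prior count of 2, while the fold changes fitted by edgeR used the default prior count of its fit.

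Exon lengths and coordinates came from GENCODE M21 (GRCm38), which held 55141 of the 55487 identifiers. The study's annotation was release 25. Windows of 250 bases before the start came from RefSeq (GRCm38.p6).

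Named were all members, pathway genes without overlap between genotypes, the 3 highest per kb, those measured by qRT-PCR and the 2 patterns closest to *Abca1*, *Nr1h3* and *Cd36*. *Cyp27a1* and *Hdac3* were named outside this rule, after DESeq2 called them. The members and lists were chosen with earlier results of these data known. Replicate numbers were not taken to pair libraries: only 2 are shared, the labels name no shared batch, and the differences between replicates 1 and 2 correlated at 0.18 across genes between genotypes.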

Additional observations from a re-analysis of the deposited data

How the results depend on the processing

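Of 113 log2 fold changes of members recomputed under the alternatives, 24 turned direction. *Nr1h2* and *Msr1* kept theirs under every alternative that gave a value, which for *Nr1h2* with libraries left out is fixed by the lack of overlap and says nothing of stability. No alternative called a member. The number of genes called was 790 with DESeq2, 234 with limma-voom and 0 to 2 with libraries left out, and pathway genes called were 4 with DESeq2 and 1 with limma-voom. Other scalings moved the median log2 fold change of all genes from 0.78 to values from 0.13 (total counts) to 1.24 (RLE size factors). Directions turned for *Scarb1* with DESeq2 (0.54), RLE size factors (0.91) and upper-quartile scaling (3.90), for *Apoe* with limma-voom (-3.91), total counts (-0.46) and no filter (-0.83), for *Lrp1* with limma-voom (4.01) and upper-quartile scaling (0.45), and for *Abcg1* with upper-quartile scaling (-2.61). The cause was not tested.

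With libraries left out, values ran from -2.28 to 14.93 for *Abca1*, -0.96 to 2.21 for *Abcg1*, -5.20 to 1.64 for *Apoe*, -4.75 to 7.83 for *Scarb1*, -3.86 to 6.21 for *Cd36* and -2.16 to 11.59 for *Lrp1*. For *Msr1* the values ran from 0.48 to 14.85. The upper ends for *Abca1*, *Scarb1*, *Lrp1* and *Msr1* come from the fit whose only *Zeb1* WT library has 0 counts of them, so they rest on the prior count. Where 1 *Zeb1* WT library remains, it is assumed to vary like the others. With 10 counts required in every library, *Abcg1* was the only member left. With the replicate number as a block, 0 genes were called, 7 had an unadjusted p under 0.05, and the values turned for *Abcg1* (-2.08), *Apoe* (-2.28), *Cd36* (-2.86) and *Lrp1* (2.07). The libraries share only a number, so this fit is not a paired analysis. Of the members, 8 had 3 counts or fewer in at least 1 library, which limits their fold changes.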
